A study of Mus musculus with 72 samples.

Results

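The Dlk1-Dio3 domain of mouse chromosome 12 carries a chain of miRNA hairpins, and the subject here is its proximal stretch, from the end of Meg3, through the transcript antisense to Rtl1, into Rian. The members are every row of the count tables that bears the number of 1 of 17 hairpins, Mir770, Mir673, Mir493, Mir337, Mir540, Mir665 and Mir3070 (Meg3 to Rtl1), Mir431, Mir433, Mir127, Mir434, Mir432, Mir3071 and Mir136 (over Rtl1), and Mir341, Mir1188 and Mir370 (Rian), taken by name alone. This gave 34 of 1927 mature miRNAs, with 15, 13 and 6 in these stretches. Of the 34, 26 had a count in some library, 22 were above 0 in all 71 libraries and 8 were at 0 in every library. The low-count filter kept 23 in each fit, and miR-540-5p, miR-3070-2-3p and miR-341-5p, with at most 6, 11 and 6 counts in a library, were not tested.

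Small RNA libraries came from the right cerebellum, left striatum and left cortex of male mice, either heterozygous for an inactivated Thap1 gene (Thap1+/-) or wild type. Thap1 encodes a zinc finger transcription factor that is mutated in DYT6 dystonia, and the study set the mutation beside a nerve injury as a possible trigger. In crush mice the right sciatic nerve had been clamped for 1 min when they were 12 weeks old, and the samples date from 12 weeks after the injury, whereas naive mice had none. Each region thus had Thap1+/- crush, Thap1+/- naive, wild-type crush and wild-type naive groups, of 6 libraries each except cortex wild-type naive with 5. Thap1+/- columns are headed DYT6KO in the tables, Thap1 mRNA is not a feature of a miRNA table, and the genotype labels could therefore not be checked on the gene itself. The tissue is bulk, so fewer cells of a type and less RNA per cell cannot be told apart. Cerebellum RNA was extracted with another kit (miRNeasy mini) than striatum and cortex RNA (micro), so the kit and the cerebellum cannot be told apart.

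In this imprinted domain the noncoding RNAs Meg3, Rtl1as, Rian and Mirg are made from the maternal chromosome and are processed into miRNAs and small nucleolar RNAs, while Dlk1, Rtl1 and Dio3 are expressed from the paternal chromosome. The domain is strongly expressed in brain, and a hairpin releases a 5p and a 3p arm, of which usually a single arm is loaded into Argonaute in quantity. The miRNAs of the antisense transcript are fully complementary to Rtl1 mRNA and in mouse guide its cleavage, an unusual mode for animal miRNAs, which mostly bind by the seed alone.

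The mature sequences that the results below turn on are given from RefSeq on GRCm38.p6, with the seed (bases 2 to 8) in capitals.
miR-337-5p: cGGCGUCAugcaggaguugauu
miR-337-3p: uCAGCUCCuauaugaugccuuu
miR-431-5p: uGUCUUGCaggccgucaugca
miR-433-5p: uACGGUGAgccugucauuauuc
miR-127-3p: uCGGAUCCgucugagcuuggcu
miR-434-5p: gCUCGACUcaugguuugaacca
miR-434-3p: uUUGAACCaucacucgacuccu
miR-136-5p: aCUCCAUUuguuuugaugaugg
miR-136-3p: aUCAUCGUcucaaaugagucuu
miR-341-3p: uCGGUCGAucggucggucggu
miR-770-3p: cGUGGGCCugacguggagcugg
No other of the 1679 mouse mature miRNAs in that table has the seed of any of these 11, and 29 of the 34 members have a seed of their own. The seeds of miR-337-5p and miR-337-3p differ, as do those of the arms of every other hairpin shown, so a change of arm is a change of seed.

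Mir337 lies at chr12:109585789-109585885 on the plus strand in a stretch between annotated genes, and Mir770 at chr12:109563692-109563785 in an exon of Meg3. Mir431, Mir433, Mir127, Mir434 and Mir136 run from chr12:109590447-109590537 to chr12:109595327-109595388 on the plus strand, opposite the coding exon of Rtl1. Mir341 at chr12:109611500-109611595 and Mir370 at chr12:109618258-109618336 are in introns of Rian. Of the 13 members over Rtl1, 11 have a full complement in the Rtl1 transcript of 6358 bases, and the sites of the most abundant member and of the member with the largest change in cortex are given here.
Rtl1 site of miR-127-3p: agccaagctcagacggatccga
Rtl1 site of miR-434-3p: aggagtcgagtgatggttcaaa
These begin at bases 2642 and 965 of the transcript. The other 2, miR-3071-5p and miR-3071-3p, come from the strand of Rtl1 itself, over 62 bases of Mir136, and had no count in any library.

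Library totals ran from 7479448 to 12589140 counts. The let-7 family with miR-98 held at least 39.0% of the counts of every library. It took 48.2% ± 3.41, 48.8% ± 3.79 and 45.9% ± 2.64 of the counts in cortex Thap1+/- crush, Thap1+/- naive and wild-type crush libraries (SD, n = 6 each), against 55.2% ± 2.17 in the wild-type naive ones (n = 5). All 4 markers of neurons and brain on the list used (miR-124-3p, miR-9-5p, miR-128-3p and miR-138-5p) were above 0 in every group. A few libraries stood apart. Libraries are called by the number that ends their column name. Cortex Thap1+/- naive library 16 had the lowest share of miR-127-3p among the members' counts in cortex (58.0%), library 18 of the same group had a let-7 share of 56.1%, and in striatum Thap1+/- crush library 8 miR-127-3p made up 45.1% of the members' counts, against at least 62.3% in the other 5 libraries of that group. Besides miR-337-3p, described last, 5 miRNAs that averaged over 50 counts in a region were at exactly 0 in some of its libraries, libraries 16 and 8 among them.

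The 34 members together took 0.838% ± 0.173 of the counts in cerebellum (SD, n = 24), 2.02% ± 0.247 in striatum (n = 24) and 1.48% ± 0.207 in cortex (n = 23). A single arm dominated. miR-127-3p, which guides cleavage of Rtl1 mRNA, gave 68.7% ± 2.05 of the members' counts in cerebellum, 63.9% ± 4.77 in striatum and 66.7% ± 3.67 in cortex. The next most abundant were miR-136-3p, miR-341-3p, miR-337-5p and miR-127-5p, and the lowest tested were miR-370-3p and miR-493-5p. Levels below are in CPM, the count relative to the scaled library size, and each tested member is 19 to 23 bases long, so no length scaling applies. Levels between regions are on the scale of a fit of the 17 naive wild-type libraries, and levels within a region on that region's own scale, which is why the same library has different values in the 2 settings.

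Across naive wild-type brain, striatum was the richest region for these miRNAs and cerebellum the poorest. In striatum against cortex, 18 of the 23 tested members were higher and 0 lower by the edgeR quasi-likelihood test with Benjamini-Hochberg adjustment (call at an adjusted p of 0.05), while 54.6% of all 579 tested miRNAs were called and 35.8% were higher. The median log2 fold change was 0.55 over the members and 0.19 over all miRNAs tested. In cerebellum against striatum, 0 members were higher and 21 lower, beside 68.4% of all miRNAs called and 37.3% lower, with medians of -1.02 and -0.08. In cerebellum against cortex, 3 were higher and 14 lower, beside 68.6% called, 37.3% higher and 31.3% lower, with medians of -0.35 and 0.06. The 3 comparisons share libraries and are not independent. In a list of miRNAs from Mirg, the distal end of the domain, 34 of 57 tested were higher and 3 lower in striatum against cortex (median 0.50), 11 higher and 29 lower in cerebellum against cortex (-0.45), and 2 higher and 45 lower in cerebellum against striatum (-0.96).

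The size of the striatal excess over cortex depended on how libraries were scaled. Median-ratio (RLE) scaling, in place of trimmed means (TMM), lowered the median of all miRNAs by 0.16 log2 units in striatum against cortex. The members then split into 14 higher and 2 lower, miR-673-3p and miR-370-5p, beside 52.7% of all miRNAs called. RLE scaling raised that median by 0.11 in cerebellum against striatum, where 19 members were lower and 0 higher, beside 68.2% of all miRNAs called. In cerebellum against cortex it gave 1 higher and 15 lower, beside 68.7% of all miRNAs. Leaving let-7 and miR-98 out before scaling, or DESeq2, gave 1 higher and 14 lower there, beside 70.6% and 54% of all miRNAs.

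**Figure D1:**
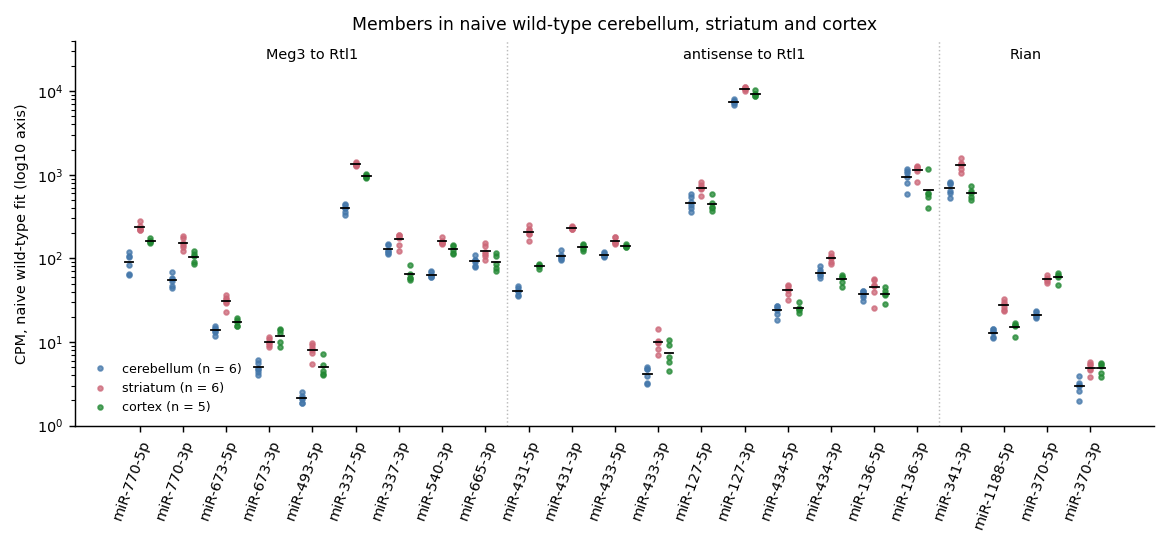
Level of the 23 tested members in naive wild-type libraries, in CPM on a log10 axis, in the order of the locus. Each point is a library of cerebellum (n = 6), striatum (n = 6) or cortex (n = 5), and black lines are means. Striatum has the highest mean for 21 of the members, and the order of cerebellum and cortex varies along the locus.

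Between Meg3 and Rtl1, both arms of Mir770 and Mir673, miR-493-5p, miR-337-5p and miR-540-3p were lower in cerebellum than in either other region. miR-770-3p had 44.2 to 68.3 CPM (median 55.2) in cerebellum, 122 to 184 CPM (median 149) in striatum and 86.2, 90.3, 106, 114 and 123 CPM in cortex. Its cerebellum values lay below all others, and the lowest striatum library, 122 CPM, was just under the highest cortex library, 123 CPM. The log2 fold change was -1.48 ± 0.12 (adjusted p = 3.49e-09) for cerebellum against striatum, -0.93 ± 0.13 (adjusted p = 3.82e-06) for cerebellum against cortex and 0.55 ± 0.13 (adjusted p = 0.00128) for striatum against cortex. Each value after ± beside a log2 fold change is its standard error. miR-770-5p moved alike, at -1.39 ± 0.14, -0.85 ± 0.14 and 0.54 ± 0.14 in the same order. miR-540-3p had 59.7 to 70.2 CPM (median 62.4) in cerebellum, 148 to 179 CPM (median 156) in striatum and 113, 117, 126, 142 and 144 CPM in cortex. No regions overlapped on this scale, but its call for striatum against cortex (0.31) was lost under RLE scaling and by DESeq2. miR-493-5p was near the low end of detection, at 2.11 ± 0.243 CPM in cerebellum and 8.04 ± 1.55 CPM in striatum (SD, n = 6 each), against 5.04 ± 1.26 CPM in cortex (n = 5). miR-673-5p stood at -1.15 ± 0.11 and miR-673-3p at -1.02 ± 0.14 for cerebellum against striatum, but striatum against cortex was 0.84 ± 0.11 for miR-673-5p and -0.25 ± 0.14 for miR-673-3p, which did not pass (adjusted p = 0.132). miR-665-3p passed for striatum against cortex (0.43 ± 0.14, adjusted p = 0.015), a call lost under RLE scaling, by DESeq2, with all 12 groups in 1 fit and without cortex library 67, and had 0.02 ± 0.14 for cerebellum against cortex (adjusted p = 0.904).

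The arms of Mir337 went separate ways. miR-337-5p had 326 to 452 CPM (median 402) in cerebellum, 1283 to 1412 CPM (median 1320.0) in striatum and 908, 943, 946, 1004 and 1032 CPM in cortex. These groups did not overlap and cerebellum was lowest, at -1.29 ± 0.08 (adjusted p = 3.63e-11) against cortex. miR-337-3p had 113 to 149.6 CPM (median 122) in cerebellum, 123 to 193 CPM (median 181) in striatum and 55.8, 57.8, 58.2, 65.9 and 84.0 CPM in cortex. Here cortex was lowest without overlap, and cerebellum stood at 0.99 ± 0.13 (adjusted p = 2.64e-06) against cortex, the opposite sign to its partner arm. That call was lost with all 12 groups in 1 fit.

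Among the miRNAs antisense to Rtl1, miR-431-5p showed the widest spread between regions. In mouse sensory neurons miR-431 is known to promote axon outgrowth after injury. It had 35.8 to 47.3 CPM (median 40.5) in cerebellum, 160.3 to 250.3 CPM (median 209) in striatum and 75.5, 80.2, 81.0, 84.4 and 84.8 CPM in cortex. No library of a region reached the values of another, and the log2 fold change was -2.35 ± 0.10 (adjusted p = 1.77e-13) for cerebellum against striatum and 1.36 ± 0.10 (adjusted p = 3.68e-09) for striatum against cortex. miR-431-3p followed with a smaller step, -1.13 ± 0.07 and 0.78 ± 0.08. miR-127-3p, the bulk of the members' counts, had 6861 to 7999 CPM (median 7530.2) in cerebellum, 9991 to 11052 CPM (median 10697) in striatum and 8663, 8752, 9168, 9243 and 10178 CPM in cortex. Cerebellum was lowest without overlap, but the steps were small, -0.51 ± 0.05 against striatum and -0.30 ± 0.06 against cortex. Striatum stood 0.22 ± 0.06 above cortex (adjusted p = 0.0032), a call lost under RLE scaling, by DESeq2 and with all 12 groups in 1 fit. miR-434-3p stood at 0.84 ± 0.11 and miR-434-5p at 0.72 ± 0.12 for striatum against cortex, each without overlap. miR-433-5p was lowest in cerebellum and highest in striatum without overlap, at -0.35 ± 0.07 for cerebellum and 0.21 ± 0.07 for striatum against cortex. The second of these calls was lost under RLE scaling, by DESeq2, with a block for the library number and with all 12 groups in 1 fit. It was also lost without 1 of the striatum libraries. miR-433-3p had -0.82 ± 0.22 and 0.44 ± 0.21, the second not passing (adjusted p = 0.0915). miR-136-5p passed the test in none of the 3 comparisons, with values of 0.25 ± 0.16 to -0.28 ± 0.15, and miR-136-3p was higher in striatum than cortex (0.79 ± 0.22) with overlapping libraries.

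In Rian, miR-341-3p had 521 to 815 CPM (median 705) in cerebellum, 1053 to 1577 CPM (median 1330.5) in striatum and 496.4, 548, 607, 643 and 737 CPM in cortex. Striatum stood clear of the other regions, at 1.11 ± 0.13 (adjusted p = 1.14e-06) against cortex, while cerebellum and cortex overlapped (0.19 ± 0.13, adjusted p = 0.207). miR-1188-5p stood at 0.85 ± 0.12 for striatum against cortex and -0.23 ± 0.12 for cerebellum against cortex, the second not passing the test (adjusted p = 0.088). miR-370-5p, from the most distal hairpin, had 19.5 to 23.5 CPM (median 21.1) in cerebellum, 50.4 to 63.5 CPM (median 56.7) in striatum and 48.7, 59.7, 62.4, 64.1 and 67.2 CPM in cortex. Striatum and cortex overlapped (-0.10 ± 0.09, adjusted p = 0.367), and cerebellum lay below both without overlap (-1.50 ± 0.09 against cortex). miR-370-3p, near the low end of detection, stood at -0.71 ± 0.17 for cerebellum and 0.02 ± 0.16 for striatum against cortex.

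The share of a hairpin's counts on its 5p arm does not depend on library scaling, and 8 hairpins had enough counts on both arms to compare it. The arm with the larger mean share was the same in every region for all 8. It was 5p for Mir433, Mir337, Mir673 and Mir770 and 3p for Mir127, Mir136, Mir434 and Mir431. Of 24 comparisons between regions (exact two-sided permutation test of the mean log2 ratio of 5p to 3p counts, adjusted over the 24), 12 passed at an adjusted p of 0.05.

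Mir337 differed in every pair of regions. Its 5p share was 75.6% ± 2.39 in cerebellum, 88.8% ± 1.65 in striatum (SD, n = 6 each) and 93.7% ± 1.28 in cortex (n = 5). No libraries overlapped, and the log2 ratio was lower in cerebellum than in cortex by an exact permutation test (difference -2.29 log2 units, adjusted p = 0.0104), lower in striatum than in cortex (difference -0.92 log2 units, adjusted p = 0.0104) and lower in cerebellum than in striatum (difference -1.37 log2 units, adjusted p = 0.0104). Mir431 gave 27.7% ± 2.96 on 5p in cerebellum, 47.0% ± 3.81 in striatum and 37.6% ± 1.33 in cortex. The 3 differences passed the permutation test, the largest between cerebellum and striatum (difference -1.21 log2 units, adjusted p = 0.0104). For Mir673 the share was 73.7% ± 2.86 in cerebellum and 75.2% ± 4.26 in striatum, against 59.3% ± 6.62 in cortex. Mir770 had a share of 61.5% ± 7.26 in cerebellum, 60.7% ± 2.47 in striatum and 61.0% ± 3.19 in cortex, and none of its 3 differences passed (smallest adjusted p = 0.876 by the exact permutation test). The other calls were Mir127 (difference 0.44 log2 units, adjusted p = 0.0476) and Mir136 (difference -0.65 log2 units, adjusted p = 0.0331) for striatum against cortex, Mir434 for cerebellum against cortex (difference -0.35 log2 units, adjusted p = 0.013) and Mir433 for cerebellum against striatum (difference 0.69 log2 units, adjusted p = 0.026), all by the same permutation test. With single libraries left out, Mir127 lost its call without cortex library 124, 31, 67 or 96 or any striatum library but 31. Mir136 lost it without cortex library 124, 67 or 96 or any of the 6 striatum libraries, and Mir433 without striatum library 118, 31, 67 or 96. The other 9 calls were kept whichever library was left out.

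**Figure D2:**
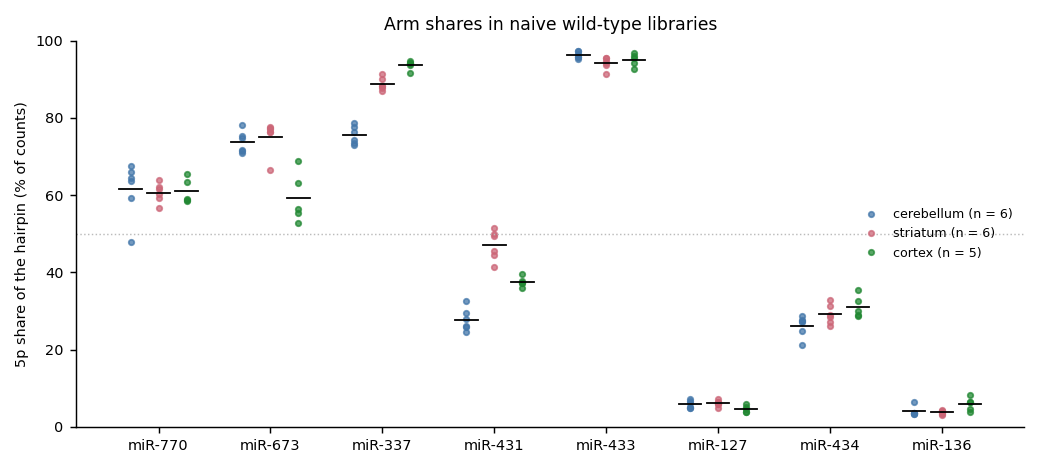
Share of each hairpin's counts on the 5p arm in naive wild-type libraries, in percent of the counts of both arms. Points are libraries of cerebellum (n = 6), striatum (n = 6) and cortex (n = 5), black lines are means, and the dotted line marks an even split. Mir337 has its lowest 5p share in cerebellum and its highest in cortex.

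The cortex held most of the differences with genotype and injury, and there the wild-type naive group stood apart from the other 3. In Thap1+/- naive against wild-type naive cortex, 11 of 23 members were called, 7 higher and 4 lower, while 20.2% of all 549 tested miRNAs were called, 12.8% higher and 7.47% lower. In wild-type crush against wild-type naive cortex, 14 were called, 8 higher and 6 lower, beside 35% of all miRNAs, 21.1% higher and 13.8% lower. DESeq2 split this last comparison into 6 higher and 7 lower, beside 28% of all miRNAs called. The median log2 fold change of the members was -0.06 in the first comparison and -0.02 in the second, against -0.01 and 0.06 over all miRNAs, so the changes went in both directions along the locus. These comparisons share the 5 wild-type naive libraries, so any deviation of those libraries enters both. In the distal Mirg list, 9 of 59 tested members were higher and 6 lower in the first comparison, and 15 higher and 7 lower in the second.

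**Figure D3:**
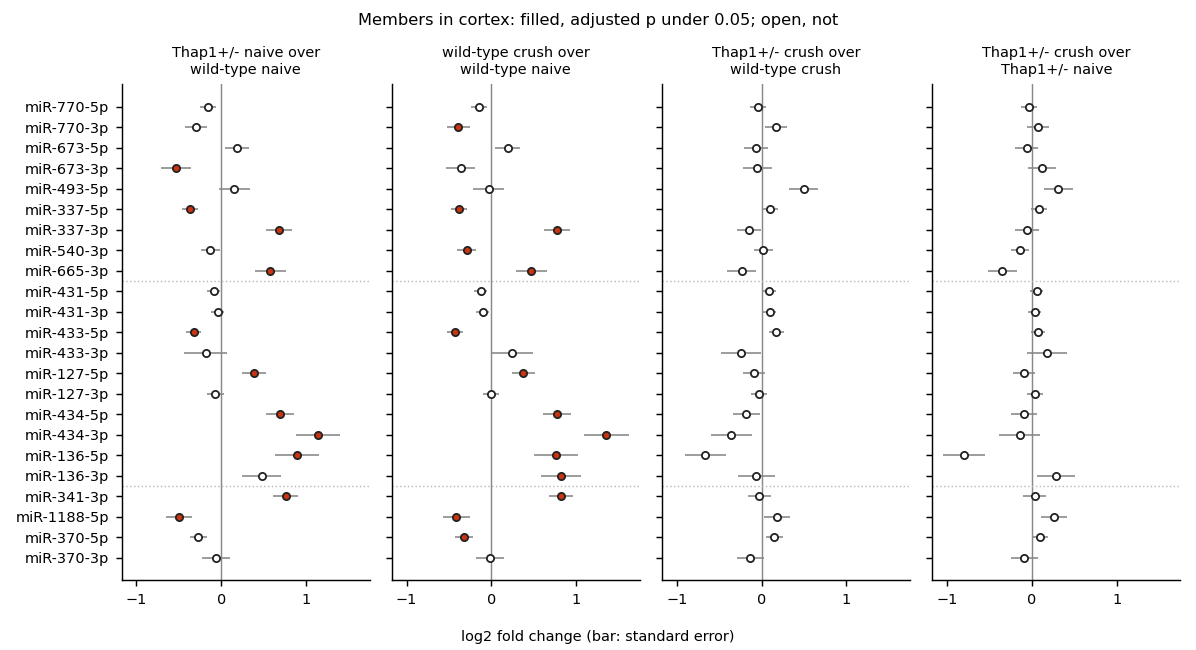
Log2 fold change of the 23 tested members in the 4 cortex comparisons, in the order of the locus from Meg3 (top) to Rian (bottom). Bars are standard errors and filled points have an adjusted p under 0.05 in edgeR's quasi-likelihood test. The first 2 panels share the wild-type naive libraries, and the other 2 panels have no filled point.

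Antisense to Rtl1, the largest change was that of miR-434-3p. It had 53.6 to 190.0 CPM (median 166) in Thap1+/- naive cortex and 139.9 to 196 CPM (median 149) in wild-type crush cortex, against 49.5, 53.5, 64.8, 67.0 and 71.5 CPM in wild-type naive cortex. All wild-type crush libraries were above the wild-type naive ones, and 4 of the 6 Thap1+/- naive libraries were, while libraries 16 and 18 (53.8 and 53.6 CPM) lay within the wild-type naive range. The log2 fold change was 1.14 ± 0.26 (adjusted p = 0.0084) for Thap1+/- naive and 1.36 ± 0.26 (adjusted p = 0.0008) for wild-type crush. Without libraries 16 and 18 the genotype difference was 1.52 ± 0.12. These were left out after seeing the data. Leaving out the libraries nearest the reference widens this difference by construction, so it adds no support. miR-434-5p, from the same hairpin, rose too, by 0.69 ± 0.17 and 0.78 ± 0.17 in the same order.

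miR-136-5p had 27.4 to 103 CPM (median 86.4) in Thap1+/- naive and 50.9 to 98.5 CPM (median 67.1) in wild-type crush cortex, against 29.5, 40.1, 40.7, 44.2 and 51.8 CPM in wild-type naive cortex. Libraries overlapped in both comparisons, and both passed (0.89 ± 0.26, adjusted p = 0.0224, and 0.76 ± 0.26, adjusted p = 0.0289). miR-136-3p passed after crush (0.82 ± 0.23, adjusted p = 0.00941) and stood at 0.48 ± 0.23 (adjusted p = 0.136) for genotype. Without libraries 16 and 18, a choice made after seeing the data, its genotype difference passed, at 0.70 ± 0.22 (adjusted p = 0.0179). Wild-type naive library 118 had 1328 CPM of miR-136-3p, against at most 651 CPM in the other 4 of its group. miR-127-5p rose by 0.39 ± 0.14 (adjusted p = 0.0474) and 0.38 ± 0.14 (adjusted p = 0.0358). These calls were kept in 3 and 4 of the 11 fits that leave out a library. Both were lost under RLE scaling, the genotype call also with its groups alone, and the crush call also by DESeq2. The far more abundant miR-127-3p was at -0.07 ± 0.10 (adjusted p = 0.658) and -0.00 ± 0.10 (adjusted p = 0.972). miR-433-5p moved the other way, with 107 to 147 CPM (median 112) in Thap1+/- naive and 103 to 119.9 CPM (median 114) in wild-type crush cortex, against 144, 152, 152, 153.6 and 161 CPM in wild-type naive cortex. Wild-type crush libraries were all below the wild-type naive ones, and the log2 fold change was -0.33 ± 0.09 (adjusted p = 0.0184) for Thap1+/- naive and -0.43 ± 0.09 (adjusted p = 0.00146) for wild-type crush. Neither arm of miR-431, the axon growth miRNA, passed in either comparison, with values between -0.13 ± 0.08 and -0.04 ± 0.08.

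Between Meg3 and Rtl1, the arms of Mir337 diverged again. miR-337-3p had 62.4 to 134.01 CPM (median 119) in Thap1+/- naive and 107 to 143 CPM (median 117) in wild-type crush cortex, against 57.2, 62.4, 64.7, 70.8 and 95.4 CPM in wild-type naive cortex. It rose by 0.68 ± 0.15 (adjusted p = 0.00799) and 0.77 ± 0.15 (adjusted p = 0.000948), and of the Thap1+/- naive libraries only library 18, at 62.4 CPM, lay inside the wild-type naive range. miR-337-5p had 681 to 1105 CPM (median 773) and 755 to 888 CPM (median 794) in those groups, against 1022, 1031, 1047, 1058 and 1079.9 CPM in wild-type naive cortex. It fell, with log2 fold changes of -0.37 ± 0.10 (adjusted p = 0.0128) and -0.38 ± 0.10 (adjusted p = 0.00505), and library 18 was again the exception with 1105 CPM. The 5p share of Mir337 was 87.5% ± 3.64 in Thap1+/- naive and 87.0% ± 1.69 in wild-type crush cortex (SD, n = 6 each), against 93.7% ± 1.28 in wild-type naive cortex (n = 5). As a ratio of arms, which is free of scaling, the change after crush had an unadjusted exact permutation p of 0.00216, the smallest 6 libraries against 5 allow, but an adjusted p of 0.139 over the 96 comparisons of arms within regions. Of those 96, 0 passed after adjustment and 16 had an unadjusted permutation p under 0.05. Even groups that separate fully reach only this smallest p, which cannot pass among 96 unless several comparisons reach it. The 0 therefore does not show that arm shares were unchanged within regions. miR-665-3p rose (0.58 ± 0.18 and 0.47 ± 0.18), miR-673-3p was lower in Thap1+/- naive (-0.53 ± 0.17), and miR-770-3p was lower after crush (-0.39 ± 0.13). With a library left out, the genotype calls of miR-665-3p and miR-673-3p were kept in 4 and 5 of 11 fits. The miR-770-3p call was kept in 7 of 11. miR-540-3p was at the threshold after crush (-0.29 ± 0.11, adjusted p = 0.0495), and its call was kept in 2 of the 11 fits that leave out a library and lost without the low-count filter and without let-7 and miR-98. miR-665-3p after crush was as close (adjusted p = 0.0495) and was likewise kept in 2 of 11, and lost under RLE scaling and by DESeq2.

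In Rian, miR-341-3p had 624 to 1345 CPM (median 1202) in Thap1+/- naive and 1022 to 1298 CPM (median 1126) in wild-type crush cortex, against 551, 592, 653, 659 and 837 CPM in wild-type naive cortex. The wild-type crush group stood clear of the wild-type naive one, and all Thap1+/- naive libraries but library 18 did too. Log2 fold changes were 0.76 ± 0.14 (adjusted p = 0.00398) and 0.82 ± 0.14 (adjusted p = 0.000533). Its neighbour miR-1188-5p fell, at -0.50 ± 0.16 (adjusted p = 0.0296) and -0.42 ± 0.16 (adjusted p = 0.0434). These calls were kept in 3 and 2 of the 11 fits that leave out a library. Both were lost without the low-count filter, the genotype call also with its groups alone, and the crush call also without let-7 and miR-98. miR-370-5p was lower after crush (-0.32 ± 0.10) and stood at -0.27 ± 0.10 (adjusted p = 0.0699) for genotype. Without libraries 16 and 18, left out after seeing the data, that genotype value was -0.40 ± 0.08 (adjusted p = 0.000383), which adds no independent support.

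**Figure D4:**
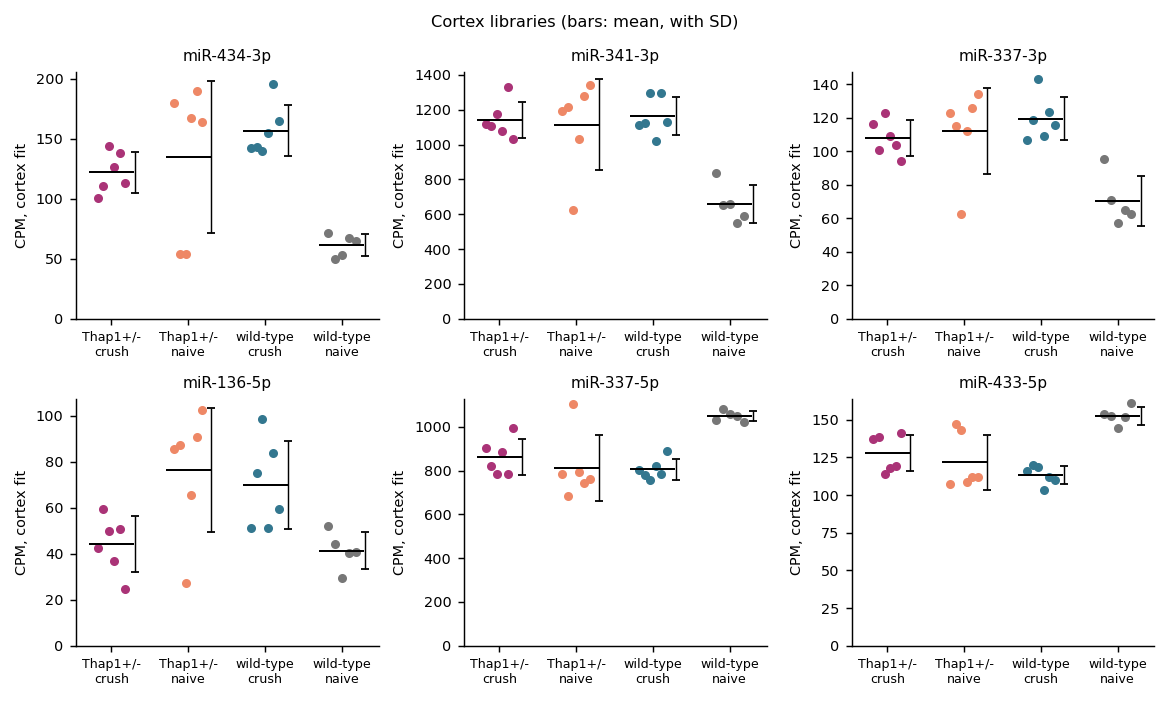
CPM of 6 members in every cortex library, by group (n = 6, and 5 for wild-type naive). Black lines are means and bars their SD. For miR-434-3p, miR-341-3p and miR-337-3p the wild-type naive libraries lie low, for miR-337-5p and miR-433-5p they lie high, and in each panel 1 or 2 Thap1+/- naive libraries sit at or next to wild-type naive levels.

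The other pairs of cortex groups, which do not use the wild-type naive libraries, had 0 members called. In Thap1+/- crush against wild-type crush, 2 members had an unadjusted p under 0.05, miR-493-5p (0.49 ± 0.17) and miR-136-5p (-0.66 ± 0.25), beside 0% of all miRNAs called and 43 of 549 at that unadjusted p, and DESeq2 called 0 members. In Thap1+/- crush against Thap1+/- naive, miR-136-5p had an unadjusted p under 0.05 (-0.80 ± 0.25, adjusted p = 0.135). Over all miRNAs, 0.729% were called and 47 of 549 were at that unadjusted p, and DESeq2 called 1 member and 13 of 595 miRNAs. The levels of miR-136-5p were 24.8 to 59.6 CPM (median 46.3) in Thap1+/- crush cortex and 27.4 to 103 CPM (median 86.4) in Thap1+/- naive cortex. The groups overlapped through naive library 18. Without libraries 16 and 18, left out after seeing the data, miR-136-5p (-0.96 ± 0.21, adjusted p = 0.0182) and miR-434-3p (-0.52 ± 0.12, adjusted p = 0.0212) passed, beside 25 of 560 miRNAs.

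The interaction asks whether crush changed a miRNA differently in Thap1+/- and wild-type cortex, as the log2 change with crush in Thap1+/- minus that in wild type. It was called for 9 of 23 members, 3 positive and 6 negative (5 positive and 6 negative by DESeq2, beside 19.8% of all miRNAs), while 13.5% of all miRNAs were called, 5.65% positive and 7.83% negative. miR-136-5p had -0.80 ± 0.25 with crush in Thap1+/- and 0.76 ± 0.26 in wild type, a difference of -1.55 ± 0.36 (adjusted p = 0.013). For miR-434-3p the changes were -0.14 ± 0.24 and 1.36 ± 0.26, a difference of -1.50 ± 0.35 (adjusted p = 0.013). miR-337-3p, miR-341-3p, miR-434-5p and miR-665-3p were negative as well, from -0.87 ± 0.23 to -0.79 ± 0.20. The positive ones were miR-337-5p (0.47 ± 0.13), miR-433-5p (0.50 ± 0.13) and miR-1188-5p (0.68 ± 0.22). They were among the members called lower in wild-type crush than in wild-type naive cortex, a change that the interaction subtracts. miR-370-5p, miR-540-3p and miR-770-3p were also called lower there but had no interaction call. Each of the 9 called differences includes the same wild-type naive libraries.

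Several library measures moved with the wild-type naive group, and their part in these results was not tested. The summed level of the 4 neuron and brain markers was 129957 to 158071 CPM of the library total in Thap1+/- crush cortex, 112156 to 140378 in Thap1+/- naive, 131842 to 165977 in wild-type crush and 108908 to 131719 in wild-type naive. The 3 microglia and white cell markers (miR-142a-3p, miR-142a-5p and miR-223-3p) summed to 163 to 253, 129 to 269, 185 to 353 and 115 to 166 CPM in the same groups, with no marker at 0 in a group. The 5 choroid plexus and ependyma markers summed to 182 to 227, 137 to 256, 209 to 313 and 158 to 204 CPM, and the 3 oligodendrocyte markers to 2073 to 3186, 1973 to 3556, 1838 to 3153 and 1804 to 2257 CPM. With let-7 and miR-98 taken out before scaling, the members called were 7 higher and 4 lower for genotype in naive cortex. For crush in wild type they were 8 higher and 4 lower. Over all miRNAs, 98 and 166 of 530 were called in these comparisons, against 111 and 192 of 549 with let-7 and miR-98 kept. Across the 23 members, log2 fold change and the GC content of the mature sequence had a Pearson r of -0.48 for genotype in naive cortex and -0.48 for crush in wild type, against -0.20 and -0.15 over the 469 of 549 miRNAs with a sequence, a description of points that share libraries.

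With the Thap1+/- naive and wild-type naive cortex groups fitted alone, which changes the spread, the filter and the scaling together, 0 of 23 members and 0 of 514 miRNAs were called. Without Thap1+/- naive libraries 16 and 18, 16 members were called, 8 higher and 8 lower, beside 225 of all 560 miRNAs, and the interaction was called for 14, 7 positive and 7 negative, beside 207 of 560. The shares over all miRNAs thus rose as well. Libraries 16 and 18 were left out after seeing the data. For some members they lay at wild-type naive levels, so the added calls are no independent support. The members added to the genotype calls were miR-136-3p, miR-370-5p, miR-540-3p (-0.31 ± 0.09, adjusted p = 0.00908), miR-770-3p (-0.36 ± 0.11, adjusted p = 0.0158) and miR-770-5p (-0.27 ± 0.08, adjusted p = 0.0131). Those added to the interaction were miR-127-5p, miR-370-5p, miR-431-3p, miR-540-3p and miR-770-3p, and no call was lost. Leaving out single libraries gave 5 calls without Thap1+/- naive library 63 or 76 (47 and 46 over all miRNAs), 7 without 16 (115 over all), 6 without wild-type naive library 31 (58 over all) and 7 without 67 or 96 (64 and 66 over all), against 11 members and 111 miRNAs with every library. For crush in wild type, fitted alone, the count stayed at 8 higher and 6 lower, beside 207 of 506 miRNAs. With all groups fitted, it was 7 without wild-type naive library 31 or 67 (147 and 146 over all miRNAs). It was 9 without wild-type crush library 139 (159 over all). miR-337-3p, miR-337-5p, miR-341-3p, miR-434-3p and miR-434-5p were called in both comparisons whichever single library was left out, as were miR-136-3p and miR-433-5p after crush. The other 6 calls for genotype and the other 7 for crush were lost without at least 1 library.

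The striatum had 0 members called in any comparison, by edgeR or by DESeq2. The edgeR background was 0% of all 575 tested miRNAs in every comparison but crush in wild type, where it was 0.174%. DESeq2 called 12 of 207 miRNAs for crush in Thap1+/-, where only 17 members had an adjusted p. It called 2 of 993 for genotype after crush, 3 of 993 for crush in wild type and 0 of 993 in the others. At an unadjusted p under 0.05 by edgeR stood miR-434-3p in 3 of the comparisons, miR-434-5p in 1 and miR-127-5p in 1. Over all 575 miRNAs, 25 stood there for genotype in naive mice and 33 for genotype after crush. For crush in wild type, crush in Thap1+/- and the interaction these were 33, 47 and 21. miR-434-3p had 70.7 to 111 CPM (median 84.9) in wild-type crush striatum and 97.9 to 135.9 CPM (median 119.8) in wild-type naive striatum. These ranges overlapped, and the log2 change with crush was -0.45 ± 0.14 (unadjusted p = 0.00284, adjusted p = 0.267), of the opposite sign to cortex. No test of that difference between the regions was made. Thap1+/- crush library 8 was far from its group for 5 members, with for example 135 CPM of miR-136-5p against 35.3 to 57.9 CPM in the other 5. Without it the count remained 0 in both comparisons that use its group.

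In cerebellum, miR-337-3p was at exactly 0 counts in 3 libraries of a single group. Thap1+/- crush libraries 46, 47 and 86 had 0 counts, and libraries 8, 133 and 117 of that group had 738, 933 and 1036. Every other cerebellum library had counts for it, 915 to 1329 in Thap1+/- naive, 894 to 1383 in wild-type crush and 1072 to 1548 in wild-type naive mice. Whether these zeros are measured counts was not tested, so no upper limit on the level is drawn from them. The other arm of the hairpin was present in the same 3 libraries, with 3436, 2437 and 2672 counts of miR-337-5p, against 3843 to 4146 in the other 3 of the group. On the CPM scale miR-337-5p was not lowest there, at 339.5, 381.7 and 408 CPM, against 309, 324 and 404 CPM in the other 3. Mir3544 lies on the opposite strand over 61 bases of Mir337, and its rows held 0 and 3 counts over all libraries together. miR-337-3p was not called in Thap1+/- crush against wild-type crush cerebellum (-1.25 ± 0.78, adjusted p = 0.291), a fitted value that depends on the prior count and is no bound. Among the 3 Thap1+/- crush libraries with counts, the values of 75.1, 77.1 and 78.6 CPM were under the 82.4 to 98.0 CPM of wild-type crush mice. In cortex and striatum miR-337-3p was above 0 in all libraries.

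**Figure D5:**
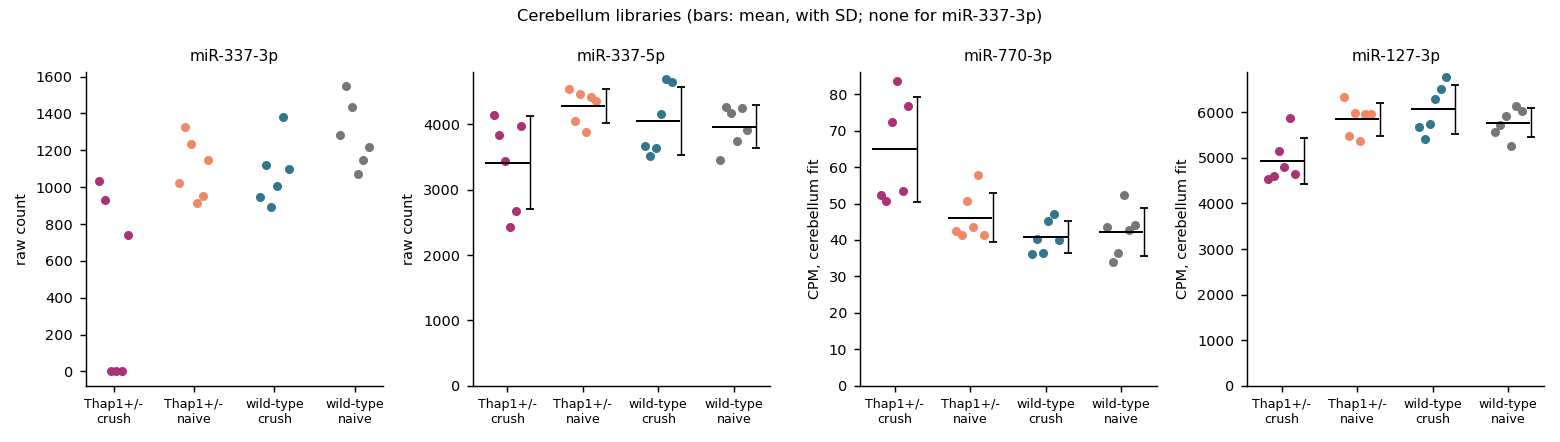
Cerebellum libraries by group (n = 6 each): raw counts of miR-337-3p and miR-337-5p, and CPM of miR-770-3p and miR-127-3p. Black lines are means and bars their SD, drawn for all but miR-337-3p. The 3 Thap1+/- crush libraries at 0 for miR-337-3p have the group's 3 highest CPM values of miR-770-3p and its 3 lowest raw counts of miR-337-5p, which in CPM were not the lowest.

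For genotype after crush in cerebellum, 5 of 23 members were called, 1 higher and 4 lower, beside 13.4% of all 552 tested miRNAs, 4.35% higher and 9.06% lower. The median was 0.02 over the members and 0.01 over all. Under RLE scaling 1 member was higher and 2 lower, beside 9.42% of all miRNAs called. miR-770-3p, from an exon of Meg3, had 50.6 to 83.6 CPM (median 62.8) in Thap1+/- crush cerebellum, against 36.1 to 47.0 CPM (median 40.1) in wild-type crush cerebellum. The groups did not overlap (0.67 ± 0.14, adjusted p = 0.00327), and the 3 highest values were those of libraries 46, 47 and 86. The lower members were miR-127-3p, miR-127-5p, miR-136-3p and miR-341-3p. miR-127-3p had 4532 to 5878 CPM (median 4727), against 5409 to 6771 CPM (median 6013) in wild-type crush cerebellum, with overlap through a single high Thap1+/- library (-0.30 ± 0.08, adjusted p = 0.0156). miR-127-5p (-0.47 ± 0.13), miR-136-3p (-0.49 ± 0.16) and miR-341-3p (-0.32 ± 0.10) overlapped between the groups.

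For crush in Thap1+/- cerebellum, 1 member was called, miR-770-3p (0.49 ± 0.14, adjusted p = 0.0361), beside 5.25% of all miRNAs, 1.27% higher and 3.99% lower. DESeq2 called 4 members, 2 higher and 2 lower, beside 15.5% of all miRNAs with an adjusted p in that fit. miR-770-3p had 50.6 to 83.6 CPM (median 62.8) after crush, against 41.2 to 57.7 CPM (median 43.1) in Thap1+/- naive cerebellum, with overlap. miR-434-3p (-0.58 ± 0.18, adjusted p = 0.0534) and miR-127-3p (-0.25 ± 0.08, adjusted p = 0.0534) came next and did not pass. Genotype in naive mice, crush in wild type and the interaction had 0 calls by edgeR among the members and 0% of all miRNAs. DESeq2 called 0 members in each, beside 0, 0 and 1 of 923 miRNAs. At an unadjusted p under 0.05 by edgeR, these comparisons had 4, 4 and 3 members, beside 50, 44 and 57 of all 552 miRNAs.

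For genotype after crush, miR-770-3p kept its call in 12 of 12 fits that leave out a library and in 5 of 6 other settings. The setting that lost it, and every other cerebellum call, left out the 3 libraries at 0 for miR-337-3p. That fit has fewer libraries, so a loss of power and a part of these libraries cannot be told apart. Without these 3, the members called were 0 in both comparisons, beside 7 and 3 of all 597 miRNAs, with miR-770-3p at 0.41 ± 0.13 (adjusted p = 0.125) and miR-127-3p at -0.22 ± 0.09 (adjusted p = 0.325) for genotype after crush. Libraries 47 and 86 had let-7 shares of 75.7% and 74.2% and the group averaged 68.5% ± 5.49 (SD, n = 6), against 61.2% ± 3.08 in wild-type crush mice (n = 6), while library 46 was at 61.2%. The neuron and brain markers summed to 36395 to 90555 CPM in Thap1+/- crush cerebellum, against 65551 to 71475 CPM in wild-type crush cerebellum. The 3 vessel markers summed to 16509.8 to 21647 CPM in Thap1+/- crush cerebellum, against 20548 to 25948 CPM in wild-type crush cerebellum. Their part in these calls was not tested. Leaving out single libraries changed the 5 calls for genotype after crush to 8 without Thap1+/- crush library 117 or 133 (106 and 91 over all miRNAs), 3 without 46 (57 over all) and 1 without 47 or 86 (21 each), against 74 over all with every library. It was 3, 3, 2 and 1 without wild-type crush library 11, 139, 2 and 3 (43, 50, 38 and 32 over all). The counts over all miRNAs moved with those of the members. The 1 call for crush in Thap1+/- became 4 without library 117 or 133 (76 and 75 over all miRNAs), 2 without 46 or 8 (45 and 31), 0 without 47 or 86 (6 and 10), 3 without naive library 48 (33), and 0 without naive library 135, 16, 18 or 76 (7, 14, 8 and 10), against 29 over all with every library.

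Within groups the members did not move as a block. Over all pairs of members, the correlation of deviations from the group mean had a median Pearson r of 0.08 in cerebellum (231 pairs, 24 libraries), -0.06 in striatum (253 pairs, 24 libraries) and -0.02 in cortex (253 pairs, 23 libraries). The arms of a hairpin could move in opposite directions or together. miR-337-3p and miR-337-5p had an r of -0.74 in striatum and -0.71 in cortex, and miR-673-3p and miR-673-5p -0.43 in cerebellum, -0.60 in striatum and -0.65 in cortex, whereas miR-434-3p and miR-434-5p had 0.33, 0.36 and 0.84 in these regions. These are descriptions over libraries that share scaling and composition.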

How the data were processed

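The 12 deposited tables held counts of reads per mature miRNA, made by the authors, whose tools per the submitters' processing notes include featureCounts 1.6.4 and R 4.1.0. The QIAseq miRNA UDI kit was used on 10 ng of RNA, per the labels' protocols. Not given in the sources used here: the aligner, the genome build and whether molecular identifiers were collapsed. No normalization had been applied, and counts of a library were the same in each table that repeats it (0 cells differed). The labels list 72 samples and 71 had a column. Column numbers match no title, so a column was assigned to its group only, and 284 other columns of values were not used. Nothing says that replicates are separate animals beyond the labels' "biol rep", so p-values measure the spread between these libraries. No 2 libraries of a group agreed within sampling noise (lowest chi-square per degree of freedom 10.9).

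Each region was fitted with its 4 groups together in edgeR 4.0.16 (R 4.3.3, TMM scaling, filterByExpr, quasi-likelihood test, Benjamini-Hochberg adjustment over all miRNAs tested, call at an adjusted p of 0.05). Regions were compared in a separate fit of the 17 naive wild-type libraries. Arm ratios were log2((5p + 0.5)/(3p + 0.5)) for the 8 hairpins whose arms both averaged at least 50 counts, with exact two-sided permutation tests. The standard error of a log2 fold change is its size over the square root of the F statistic. The script was tested on counts simulated from the means and library sizes of all cortex libraries, with a preset spread. It recovered 98.5% of 200 miRNAs changed 2-fold in the wild-type crush group among 540, and 1.5% of its calls were false. Only miRNAs over a minimum count were changed. Outlying libraries and shifts of composition were not simulated, so these rates need not hold for the real libraries. Alternatives were RLE scaling, no low-count filter, DESeq2 1.42.0, scaling without let-7 and miR-98, a fit of 2 groups alone, leaving out each library and, between regions, a replicate block and all 12 groups in 1 fit. Leaving out the libraries that stood apart was added after seeing the data. Every member could be named. The members, lists and tests were chosen with earlier results of these data known. Reads may not be independent molecules. Python 3.11.15 with matplotlib 3.10.9 served for the plots.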

Additional observations from a re-analysis of the deposited data

Results flagged for a closer look

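Of the 23 tested members, 16 were examined in the 12 groups of 5 or 6 libraries, namely those called in a comparison within a region. Of these 192 combinations of a member and a group, 22 had a library far from the others by Dixon's criterion, in 15 members and 12 libraries. Chance gives about 1 in 20 groups. The cause of these values was not tested.

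Striatum Thap1+/- crush library 8 stood apart for 5 members. It had 15.0 CPM of miR-1188-5p (30.6 to 35.9 in the other 5), 5.79 of miR-673-3p (12.8 to 16.4) and 936 of miR-337-5p (1656 to 2018), all low, and 135 of miR-136-5p (35.3 to 57.9) and 2279 of miR-341-3p (1196 to 1368), both high. Cortex Thap1+/- naive library 18 stood apart for 3, with 62.4 CPM of miR-337-3p (112 to 134.01 in the other 5), 1105 of miR-337-5p (681 to 795) and 75.9 of miR-370-5p (47.3 to 52.6). Library 16 of that group had 6839 CPM of miR-127-3p (9469 to 10615).

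miR-136-3p was high in a single library 4 times. It reached 1669.6 CPM in cortex Thap1+/- crush library 86 (1068 to 1194 in the others), 1328 in cortex wild-type naive library 118 (446 to 651), 1932 in striatum Thap1+/- crush library 86 (839 to 1169.6) and 1697 in striatum wild-type crush library 2 (881 to 1096). Cortex Thap1+/- crush library 86 was also high for miR-1188-5p at 20.6 CPM (11.6 to 13.5) and miR-770-3p at 120.4 (84.6 to 97.2). Cortex wild-type naive library 118 was low for miR-1188-5p at 13.2 CPM (16.8 to 17.9), and striatum wild-type crush library 2 was high for miR-337-3p at 214 (148 to 162).

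The remaining ones were miR-433-5p at 283 CPM in striatum Thap1+/- naive library 63 (189 to 211), miR-434-5p at 34.6 in striatum Thap1+/- crush library 133 (42.1 to 45.9) and miR-540-3p at 224 in striatum wild-type naive library 31 (174 to 189). In cerebellum, miR-434-3p was at 33.6 CPM in Thap1+/- naive library 48 (47.7 to 53.3) and miR-127-5p at 542 in wild-type crush library 2 (318 to 391).

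The change with crush differed between Thap1+/- and wild-type cortex for 9 of 23 members in edgeR's interaction test, beside 74 of 549 miRNAs (13.5%). Each of these differences includes the same wild-type naive libraries. The difference on the log2 scale was -1.55 ± 0.36 for miR-136-5p, -1.50 ± 0.35 for miR-434-3p, -0.87 ± 0.23 for miR-434-5p, -0.83 ± 0.21 for miR-337-3p, -0.82 ± 0.25 for miR-665-3p and -0.79 ± 0.20 for miR-341-3p. It was 0.47 ± 0.13 for miR-337-5p, 0.50 ± 0.13 for miR-433-5p and 0.68 ± 0.22 for miR-1188-5p. Of 23 fits that leave out a library, miR-1188-5p was called in 7, miR-665-3p in 15 and miR-337-5p in 21. The other members were called in all of them. The miR-1188-5p call was also lost without the low-count filter and without let-7 and miR-98, and the miR-337-5p call without the filter.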

How the results depend on the processing

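Counts of members called moved by over 1.5 times as follows. In cortex, Thap1+/- naive against wild-type naive had 11 calls, 0 with these groups alone and 5 to 15 with single libraries left out. Thap1+/- crush against Thap1+/- naive had 0, 1 by DESeq2, 2 without Thap1+/- naive libraries 16 and 18, and 0 to 1 with single libraries left out (1 without library 18). The interaction had 9, 14 without libraries 16 and 18, and 6 to 12 with single libraries left out. Wild-type crush against wild-type naive had 14, and 7 to 13 with single libraries left out. Over all miRNAs, the first of these had 111 of 549 calls, and 0 of 514 with its groups alone. The second had 4 of 549, 13 of 595 by DESeq2 and 25 of 560 without libraries 16 and 18. The interaction had 74 of 549, and 207 of 560 without libraries 16 and 18, and the last comparison had 192 of 549. In cerebellum, Thap1+/- crush against wild-type crush had 5, 3 under RLE scaling, 3 without let-7 and miR-98, 1 without the low-count filter, 1 with these groups alone, 0 without the 3 libraries at 0 for miR-337-3p, and 1 to 8 with single libraries left out. Over all miRNAs it had 74 of 552, 52 of 552 under RLE scaling and 46 of 540 without let-7 and miR-98. It had 31 of 935 without the filter, 6 of 498 with these groups alone and 7 of 597 without the 3 libraries. Thap1+/- crush against Thap1+/- naive had 1, 4 by DESeq2, 0 without the filter, 0 with these groups alone, 0 without the 3 libraries, and 0 to 4 with single libraries left out. The cause was not tested. No call of a member changed sign under these alternatives where it was computed.

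Between regions, the 18, 17 and 21 calls stayed within 17 to 19, 15 to 18 and 21 to 22 with single libraries left out. With every library, 54.6%, 68.6% and 68.4% of all 579 miRNAs were called in the same comparisons. Column numbers recur in the same genotype and treatment group across regions, so same-numbered libraries may come from the same mouse, which the labels do not say. Such libraries of different regions correlated at over 0.1 in 6 of 16 pairs. The main tests between regions, arm ratios included, treated libraries as independent and ignored any such pairing. For levels, a replicate block by number gave 18, 17 and 21 calls, with 55 of 56 member calls kept. Beside these, 55.4%, 68.4% and 69.1% of all miRNAs were called with the block. Of 32 cases of a library set against the 5 or 6 libraries of another region, 14 had their highest correlation with their own number. No paired analysis was possible within a region because its groups share no column number. The 12 arm ratios called between regions ranged from 9 to 13 with single libraries left out. Groups of 5 or 6 libraries and a few counts for the lowest members limit what could be detected.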
